A study of Mus musculus with 24 samples.

Results

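The lost and gained regions described here are stretches of the mouse genome whose lamin A/C domains differed between LAP2alpha-deficient and wild-type fibroblasts in the same direction with both lamin A/C antibodies after extended sonication. A lost stretch lay inside domains of both WT libraries and of neither KO library at 30 cycles. A gained stretch lay inside domains of both KO libraries and of neither WT library. With a minimum length of 11 kb, the width of the bins on which the domains were called, there were 62 lost stretches (18.6 Mb) and 185 gained stretches (72.95 Mb), together 247 of the 1886 stretches (1097 Mb) that any of the 4 lamin A/C libraries at 30 cycles held. The stretches were chosen by the EDD domain calls (enriched domain detector) of these 4 libraries, so their own cover of the stretches is a description and is not evidence of a change.

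Chromatin immunoprecipitation followed by sequencing (ChIP-seq) was done in immortalized mouse dermal fibroblasts that were Lap2alpha -/- (KO) or Lap2alpha +/+ (WT), fixed with formaldehyde, with chromatin sheared by 12 or 30 sonication cycles and with no other treatment. KO cells lack the LAP2alpha product of the Tmpo gene and keep its other products. The antibodies N18 and 3A6 against lamin A/C were used in KO and WT cells, and antibodies against lamin B1 and LAP2alpha in WT cells, giving 12 libraries with region lists (4 KO and 8 WT) and 1 library per group. Whether each line was a single clone, and the age of the donor mice, are not given in the sources used here. The lists hold no reads of Tmpo itself, so the deletion could not be checked. With 1 library per group no test between genotypes was possible, and the values below have no replicate check.

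Lamins form the meshwork under the inner nuclear membrane. B-type lamins stay at the nuclear periphery, where they contact lamina-associated domains, long stretches of gene-poor and A+T-rich chromatin that is mostly silent. A-type lamins, the products of Lmna, lie at the periphery and also in the nuclear interior, where LAP2alpha, a nucleoplasmic protein without a membrane anchor, binds them. Lamin B1 domains therefore serve below as a marker of peripheral chromatin, and LAP2alpha domains as a marker of the interior partner of lamin A/C.

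The base composition of the stretches is shown first. The choice of the stretches did not read the sequence, but it placed lost bp inside and gained bp outside WT lamin A/C domains. Base composition is therefore not independent of the choice. For the 3 longest lost and the 3 longest gained stretches printed here, the middle 120 bases of the 11-kb bin whose G+C content was nearest to that of the stretch are given on the plus strand of mm9 (NCBIM37), with CG dinucleotides in capitals.
lost, chr14:60219441-60219560, intergenic: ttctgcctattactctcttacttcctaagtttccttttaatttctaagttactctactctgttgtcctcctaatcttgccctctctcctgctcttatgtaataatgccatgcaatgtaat
lost, chr6:111336441-111336560, intron of Grm7: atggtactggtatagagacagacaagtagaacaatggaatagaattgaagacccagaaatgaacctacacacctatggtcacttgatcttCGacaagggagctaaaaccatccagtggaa
lost, chr17:70141441-70141560, intergenic: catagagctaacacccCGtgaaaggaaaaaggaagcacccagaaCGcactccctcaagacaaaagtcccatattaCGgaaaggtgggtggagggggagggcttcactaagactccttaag
gained, chr8:13887441-13887560, intron of 2410022L05Rik: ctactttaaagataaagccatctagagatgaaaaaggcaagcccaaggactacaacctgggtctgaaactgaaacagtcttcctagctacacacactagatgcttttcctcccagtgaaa
gained, chr5:115329441-115329560, exon of 4930519G04Rik: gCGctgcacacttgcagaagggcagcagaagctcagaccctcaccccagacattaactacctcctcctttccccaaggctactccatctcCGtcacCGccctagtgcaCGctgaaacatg
gained, chr5:140574441-140574560, intron of Mad1l1: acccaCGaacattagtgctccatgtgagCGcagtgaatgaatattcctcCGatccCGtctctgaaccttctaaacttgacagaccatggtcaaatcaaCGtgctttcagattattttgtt
The 3 lost windows held 0, 1 and 3 CG dinucleotides, and the 3 gained windows held 0, 4 and 5. A window this short departs from its bin. The window from the longest gained stretch had 42.5% G+C in a bin of 47.1%, and that from the lost stretch on chromosome 17 had 50.8% in a bin of 40.7%.

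Over their whole length the lost stretches were poorer in G+C and in CG than the gained ones. Lost bases were 40.7% G+C, gained bases 46.3%, and the genome 41.8%. CG dinucleotides numbered 6.73 per kb in lost stretches, 11.7 per kb in gained stretches and 8.34 per kb in the genome. Among the stretches, G+C ran from 37.9% to 45.3% with a median of 40.8% in the lost set, and from 38.1% to 53.5% with a median of 45.8% in the gained set. The ranges overlapped, but 20 of 62 lost stretches were above the genome value, against 176 of 185 gained stretches. On each of the 16 chromosomes that held both kinds, lost bases had the lower G+C content, so the difference was not one between chromosomes alone. Whatever KO held, the regions inside WT 3A6 domains at 30 cycles were 37.9% to 43.0% G+C. The lost value lay in that range and does not show a change in KO. Regions that neither WT library held were 39.7% to 47.6%, so the choice fixed the gained value less closely. CG, promoter and gene density values were not made for such regions.

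**Figure D1:**
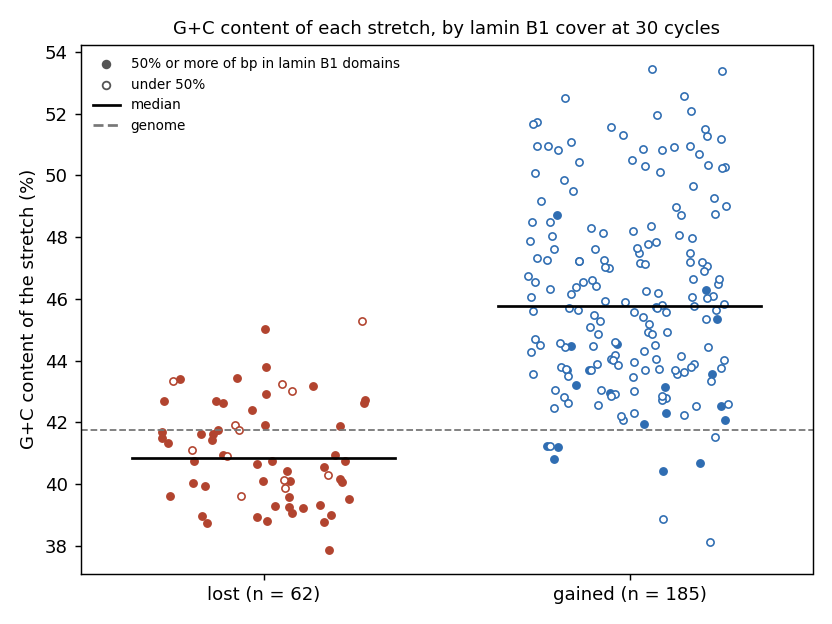
G+C content of each stretch (% of bases, vertical axis) in the lost (left) and gained (right) sets. Each point is a stretch, filled where 50% or more of it lay in lamin B1 domains of WT cells at 30 cycles (50 of 62 lost, 20 of 185 gained), black lines are medians (40.8% and 45.8%), and the dashed line is the genome (41.8%).

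Promoters of the genes whose annotated start lay inside the stretches differed in the same direction. Taking 250 bases before to 50 after the start, the median number of CG dinucleotides (the letters CG, alike on both strands) was 2.5 over 68 lost starts, 15 over 924 gained starts and 11 over 22203 starts in the genome. At least 10 CG were found in 22.1% of lost promoters, 60.4% of gained promoters and 54.1% of all promoters. Lost promoters included many of olfactory, vomeronasal and taste receptor genes, and without these the lost median was 5 over 49 starts. The promoters of an odorant receptor gene in a lost stretch and of Sun1, a gene for an inner nuclear membrane protein that links the lamina to the cytoskeleton, in a gained stretch show the contrast, both on the plus strand of mm9 and with CG in capitals.
Olfr360 (lost), chr2:36921016-36921315: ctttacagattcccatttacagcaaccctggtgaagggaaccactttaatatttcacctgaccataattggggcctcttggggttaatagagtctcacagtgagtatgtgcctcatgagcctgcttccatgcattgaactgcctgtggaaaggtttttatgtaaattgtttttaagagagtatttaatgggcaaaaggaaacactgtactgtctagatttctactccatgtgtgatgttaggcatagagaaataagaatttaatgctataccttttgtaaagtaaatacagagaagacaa
Sun1 (gained), chr5:139676341-139676640: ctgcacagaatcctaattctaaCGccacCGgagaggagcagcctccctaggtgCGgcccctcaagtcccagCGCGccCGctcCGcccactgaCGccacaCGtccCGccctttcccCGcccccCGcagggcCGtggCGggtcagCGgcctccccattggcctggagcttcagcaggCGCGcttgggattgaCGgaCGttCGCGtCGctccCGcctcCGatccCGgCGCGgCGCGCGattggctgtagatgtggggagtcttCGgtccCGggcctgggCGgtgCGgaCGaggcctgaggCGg
The Olfr360 promoter had 0 CG and 38% G+C, and the Sun1 promoter had 36 CG and 71.3% G+C. They were chosen after their values were seen.

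Lost stretches were shorter and fewer than gained ones. Lost lengths ran from 11 kb to 1529 kb with a median of 203.5 kb, and gained lengths from 11 kb to 2409 kb with a median of 275 kb. At the 11-kb limit there were 4 lost and 11 gained stretches, at the next length of 22 kb there were 8 and 8, and none was under 11 kb. At least 500 kb was reached by 14 lost and 52 gained stretches. Lost stretches took 0.728% and gained stretches 2.85% of the genome. The excess of gained over lost length was seen with domain calls and turned round with islands. With SICER islands of the same 4 libraries in place of domains, lost bp summed to 42.3 Mb and gained bp to 34.2 Mb. The island sums include chromosome 13 and the X chromosome, where domains gave no lost stretch. Island cover there was far higher in WT than in KO with both antibodies, and on chromosome 18 it was far higher in KO. Island sums without these chromosomes were not made, so their part in the turn was not tested. N18 domains at 30 cycles covered 472 Mb in KO and 239 Mb in WT, whereas 3A6 domains covered 499.6 Mb in KO and 582 Mb in WT. With the 4 sets trimmed to the same length by score, 18 lost stretches (11.8 Mb) and 46 gained stretches (27.7 Mb) were left.

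Only part of what either antibody lost or gained was shared by the other. The lost stretches made up 25.9% of the bp lost with N18 and 5.76% of those lost with 3A6. The gained stretches made up 23.9% of the bp gained with N18 and 30.3% of those gained with 3A6. Opposite calls covered 0.869 Mb that N18 gained and 3A6 lost, and 7.27 Mb that N18 lost and 3A6 gained. Both antibodies shared the input library of each genotype, so their calls are not independent of each other.

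A first comparison is with the regions that 1 antibody changed while the other held no domain there in either genotype. What N18 alone gained (225 Mb) was 47.6% G+C and lay to 2.34% in lamin B1 domains, close to the gained stretches at 46.3% and 7.72%. What 3A6 alone gained (81.9 Mb) was 39.7% G+C and lay to 71.4% in lamin B1 domains, so it was unlike them. What 3A6 alone lost (295 Mb) was 37.9% G+C and lay to 94.7% in lamin B1 domains, further in the direction of the lost stretches at 40.7% and 79.7%. What N18 alone lost (17.7 Mb) was 42.4% G+C and lay to 53.6% in lamin B1 domains. Of all regions that both WT libraries held at 30 cycles, the lost stretches lay least in lamin B1 domains. The others lay to 89.5% where KO kept both antibodies, 98.3% where N18 was lost and 3A6 kept, and 86.3% where N18 was kept and 3A6 lost. High LAP2alpha cover at 12 cycles was likewise not particular to gained stretches (72.7%), since it was 87.0% where N18 was kept and 3A6 gained.

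Lamin B1 and LAP2alpha, which the choice did not use, separated the lost from the gained stretches in opposite directions. Lamin B1 domains of WT cells at 30 cycles covered 79.7% of lost bp, 7.72% of gained bp and 37.3% of the genome, a lost minus gained difference of 72.0 percentage points. The WT samples had 1 input per sonication. These WT domains and the WT lamin A/C domains behind the choice therefore shared an input and are not fully independent. The choice also placed lost bp inside WT 3A6 domains and gained bp outside them. Whatever KO held, the regions inside WT 3A6 domains at 30 cycles lay to 78.5% to 98.8% in these lamin B1 domains. The high lost value thus follows from the WT part of the choice and does not show a change in KO. Regions that neither WT library held lay to 2.34% to 71.4% in them, so the choice fixed the gained value less closely. At 12 cycles lamin B1 domains covered 37.9% of lost bp, 4.75% of gained bp and 17.4% of the genome. LAP2alpha domains at 12 cycles covered 12.9% of lost bp, 72.7% of gained bp and 19.8% of the genome. At 30 cycles LAP2alpha domains covered 38.9% of lost bp, 58.5% of gained bp and 25.2% of the genome, so lost stretches too were above the genome there. The chromosomes that carry the lost stretches had lamin B1 cover of 37.1% at 30 cycles and those that carry the gained ones 34.9%, each weighted by the stretches on them.

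The separation held for most single stretches. At least 50% of the length was in lamin B1 domains at 30 cycles for 50 of 62 lost and 20 of 185 gained stretches, and no base was for 12 lost and 150 gained stretches. For LAP2alpha at 12 cycles the counts of at least 50% were 12 of 62 lost and 133 of 185 gained stretches. The order was the same in 3 length classes. Lost stretches under 100 kb, of 100 to 500 kb and of at least 500 kb lay to 72.1%, 81.2% and 79.6% in lamin B1 domains at 30 cycles, and gained stretches of the same classes to 14.2%, 10.4% and 6.12%. SICER islands, which are shorter regions called by another program, gave the same order for lamin B1 at 30 cycles, with 41.9% of lost bp, 4.83% of gained bp and 11.6% of the genome inside islands. For LAP2alpha at 30 cycles islands gave no such order, with 14.8% of lost and 13.1% of gained bp. The chromosomes that carry the stretches, weighted by the stretches on them, had 9.39% for the lost and 6.02% for the gained set.

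**Figure D2:**
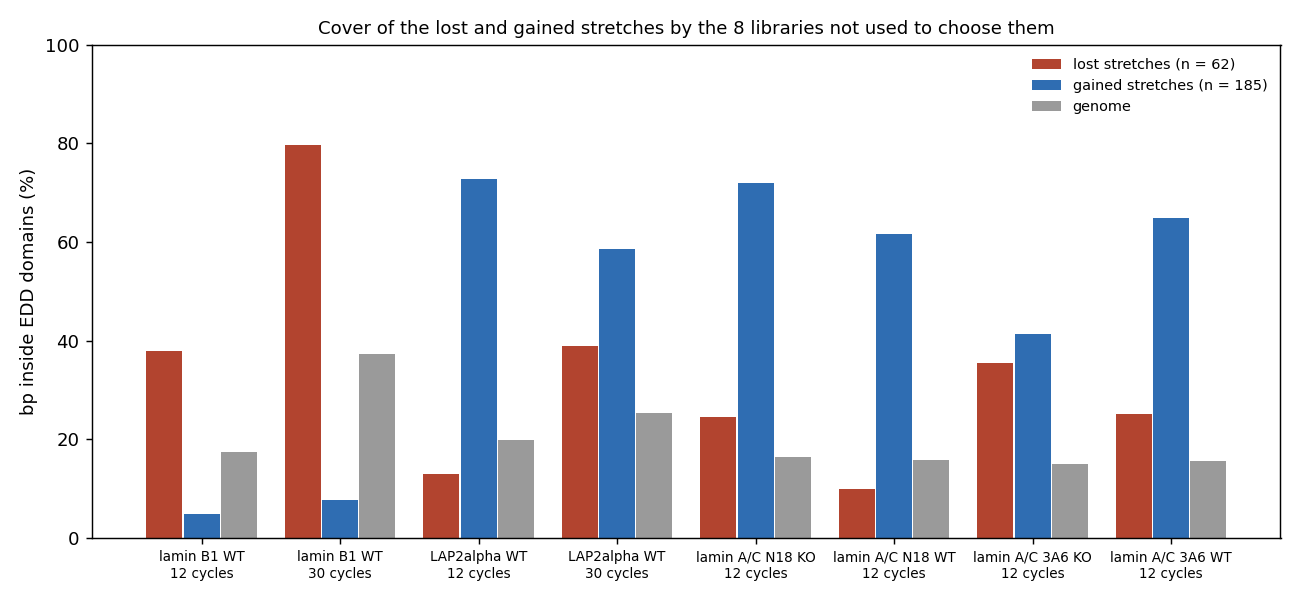
Percent of bp inside EDD domains (vertical axis) of each of the 8 libraries that the choice of stretches did not use, for lost stretches, gained stretches and the genome. Lost bars are highest for lamin B1 (79.7% at 30 cycles), and gained bars are highest for LAP2alpha and for lamin A/C at 12 cycles (72.7% for LAP2alpha).

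**Figure D3:**
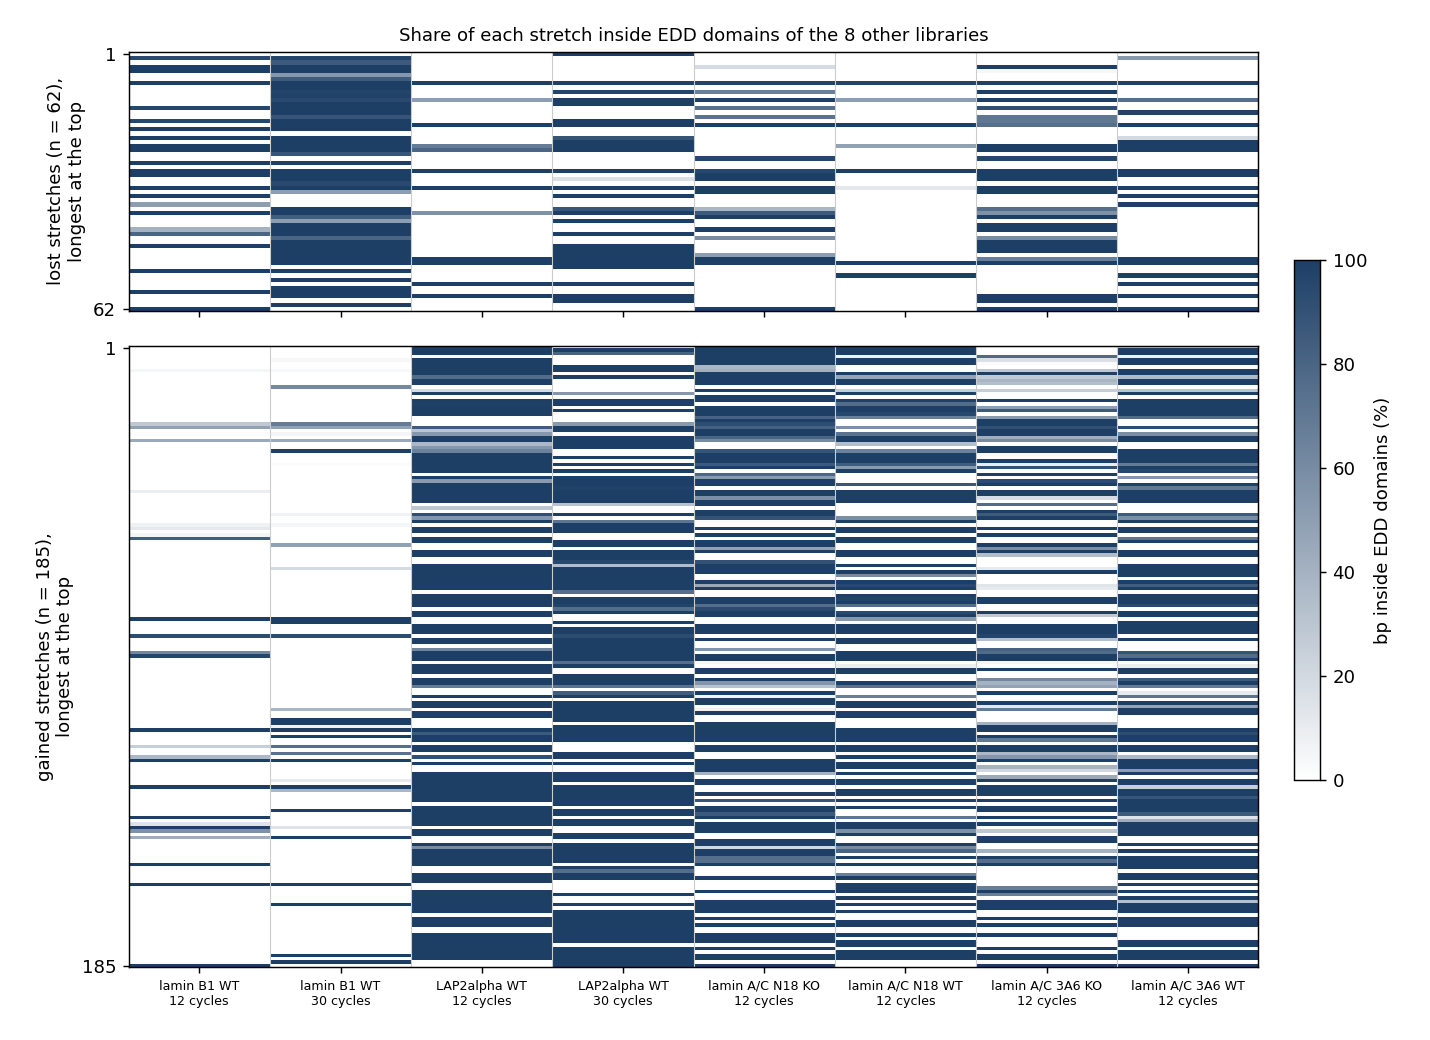
Each row is 1 stretch and each column 1 library, with the shade giving the percent of the stretch inside EDD domains. The 62 lost stretches are above and the 185 gained stretches below, each set with the longest at the top. In the lamin B1 column at 30 cycles 36 lost and 15 gained stretches were covered whole, and in the LAP2alpha column at 12 cycles 8 lost and 119 gained stretches were.

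LAP2alpha had no domain at 30 cycles on chromosomes 3, 8, 13, 19 and X, which hold 1.54 Mb of the lost and 15.5 Mb of the gained length. On the other chromosomes its domains covered 42.4% of lost and 74.3% of gained bp. When the stretches were built from SICER islands, LAP2alpha domains covered 7.51% of lost and 12.0% of gained bp and lamin B1 domains 59.4% and 25.4%. The lamin B1 value of the gained set depended on the antibody, since 3A6 taken alone gave 41.8%.

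The 6 longest lost stretches show the lamin B1 pattern with 1 exception. The longest, chr14:58707001-60236000 (1.53 Mb, 13 genes), held Cab39l, a scaffold of the LKB1 kinase complex, and Fgf9, a fibroblast growth factor. It lay to 0% in lamin B1 domains at 12 and at 30 cycles, to 0% in LAP2alpha domains at 12 cycles and to 100% at 30 cycles, and no domain of a lamin A/C library at 12 cycles lay in it, while their islands at 12 cycles covered 1.70% (N18) and 3.14% (3A6) in KO and 8.89% (N18) and 10.7% (3A6) in WT. It was the longest lost stretch and the 1 of the 6 outside lamin B1 domains altogether. Lamin B1 islands still covered 8.37% of it at 12 cycles and 18.6% at 30 cycles, beside 10.0% and 11.6% of the genome.

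The stretch chr6:110979001-112134000 (1.16 Mb) held Grm7, a metabotropic glutamate receptor gene, as its only gene. Lamin B1 domains covered 94.3% of it at 12 cycles and 96.2% at 30 cycles, LAP2alpha domains 0% at both, and among lamin A/C libraries at 12 cycles 3A6 in WT covered 53.3% and the other 3 covered 0%. The stretch chr17:69916001-71038000 (1.12 Mb) held Dlgap1, a gene for a postsynaptic scaffold. It lay to 0% in lamin B1 domains at 12 cycles and to 85.3% at 30 cycles, with 0% for LAP2alpha and for lamin A/C at 12 cycles. LAP2alpha had no domain in either stretch, but its islands covered 12.2% of the Grm7 stretch at 12 cycles and 1.82% at 30 cycles, and 17.3% and 14.4% of the Dlgap1 stretch, beside 9.44% and 6.81% of the genome.

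The stretch chr17:57519001-58366000 (0.847 Mb, 4 genes) held Cntnap5c, of the contactin-associated family of neural adhesion genes, and the vomeronasal receptor gene Vmn2r120. Lamin B1 covered it whole at both sonications and LAP2alpha at neither. At 12 cycles 3A6 covered 100% in KO and 0% in WT, and N18 18.2% in KO and 0% in WT, the opposite of the 30-cycle direction. The stretch chr12:90585001-91410000 (0.825 Mb) held part of Nrxn3, a neurexin gene of presynaptic adhesion, and lay to 100% in lamin B1 domains at both sonications, to 0% in LAP2alpha domains and, at 12 cycles, to 4% in 3A6 domains of KO and 0% in the other lamin A/C libraries. No island of any of the 12 libraries touched it, and islands covered 0% to 3.93% of chromosome 12 in the 4 lamin A/C libraries at 30 cycles. The stretch chr3:156662001-157421000 (0.759 Mb, 3 genes) held Ptger3, a prostaglandin E receptor gene, and Zranb2, a gene of RNA splicing, and lay to 53.6% in lamin B1 domains at 30 cycles and to 0% in every other library outside the choice.

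Island cover of these lost stretches at 30 cycles was lower in KO than in WT with both antibodies in 4 of the 6, 0 in both for Nrxn3, and higher in KO on chromosome 3. In the Grm7 stretch islands of N18 at 30 cycles covered 11.1% in KO and 59.7% in WT, and islands of 3A6 10.3% in KO and 64.0% in WT. In the Dlgap1 stretch they covered 14.2% in KO and 58.5% in WT with N18, and 8.02% in KO and 67.2% in WT with 3A6. The whole chromosomes differed too with 3A6. Islands of 3A6 covered 7.84% of chromosome 6 in KO and 22.6% in WT, and 4.95% of chromosome 17 in KO and 21.4% in WT. Islands of N18 covered 22.5% of chromosome 6 in both genotypes, and 18.9% of chromosome 17 in KO and 25.5% in WT. In the Ptger3 stretch they covered 58.9% in KO and 40.6% in WT with N18, and 37.9% in KO and 32.4% in WT with 3A6, so the domain call and the island call disagreed there.

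The 6 longest gained stretches lay on chromosomes 5 and 8, outside lamin B1 domains except for 3.33% of 1 of them. Lamin B1 islands at 12 cycles covered 25.8% of chr8:95216001-96624000 and 11.8% of chr8:12749001-15158000, beside 10.0% of the genome, and 6.21% or less of the others. At 30 cycles they covered at most 4.62% of any of these stretches, beside 11.6% of the genome. The longest, chr8:12749001-15158000 (2.41 Mb, 37 genes), held Dlgap2, a relative of Dlgap1, and the zinc finger gene Zfp828. LAP2alpha domains covered it whole at 12 cycles and to 0% at 30 cycles. At 12 cycles N18 covered 100% in KO and 100% in WT, and 3A6 5.02% in KO and 25.1% in WT. N18 domains in WT thus held the stretch at 12 cycles and not at 30 cycles, where N18 islands in WT still covered 43.8% of it.

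The stretch chr5:113949001-116193000 (2.24 Mb, 63 genes) was the richest in genes, with Wscd2 and Acacb, a gene for the acetyl-CoA carboxylase of mitochondria. LAP2alpha covered it whole at both sonications. At 12 cycles N18 covered 100% in KO and 100% in WT, and 3A6 0% in KO and 100% in WT. The stretch chr5:139150001-141339000 (2.19 Mb, 37 genes) held Sun1 and Cyp2w1, a cytochrome P450 gene. LAP2alpha covered 100% at 12 cycles and 80.4% at 30 cycles, N18 at 12 cycles 99.5% in KO and 100% in WT, and 3A6 1.51% in KO and 100% in WT. For both blocks the 3A6 cover at 12 cycles was lower in KO than in WT, opposite to 30 cycles.

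The stretch chr8:95216001-96624000 (1.41 Mb, 20 genes) held Gnao1, a G protein subunit gene, Lpcat2, a gene of phospholipid synthesis, and 9 of the 20 carboxylesterase genes (45%, beside 4.23% of all genes inside gained stretches), a list added after the values were seen whose 9 members count as 1 region. It differed from the others in LAP2alpha domains at 12 cycles, which covered 0.781% of it, but LAP2alpha islands covered 39.7% at 12 cycles, more than in the Acacb, Sun1 and Auts2 stretches (14.9%, 20.2% and 2.58%). At 30 cycles LAP2alpha had no domain on chromosome 8 at all. At 12 cycles N18 covered 100% in KO and 6.25% in WT, and 3A6 77.3% in KO and 6.25% in WT, the same direction as at 30 cycles. The other pair, chr5:131296001-132616000 with Auts2 and chr8:10505001-11825000 with Col4a2 and Col4a1 (1.32 Mb each), lay to 100% in LAP2alpha domains at 12 cycles and to 0% at 30 cycles. Col4a1 and Col4a2 encode the chains of basement membrane collagen. At 12 cycles N18 covered both stretches whole in both genotypes, and 3A6 covered 15.8% in KO and 100% in WT for Auts2 and 1.67% in KO and 100% in WT for the collagen pair.

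Islands at 30 cycles covered more of each of these 6 gained stretches in KO than in WT with both antibodies, by amounts that differed widely. In the Dlgap2 stretch N18 islands covered 84.3% in KO and 43.8% in WT, and 3A6 islands 48.2% in KO and 0% in WT. Over all of chromosome 8, N18 islands covered 43.6% in KO and 37.2% in WT, and 3A6 islands 48.4% in KO and 28.6% in WT. The 3A6 value of the Dlgap2 stretch in KO was thus no higher than that of its chromosome. In the collagen stretch the N18 values were close, 72.3% in KO and 67.4% in WT, although no N18 domain was called there in WT, and 3A6 islands covered 63.7% in KO and 0.682% in WT. In the Gnao1 stretch they covered 78.1% in KO and 25.2% in WT with N18, and 82.6% in KO and 7.60% in WT with 3A6. Islands in the 3 stretches of chromosome 5 were sparser, at most 23.1% in KO (N18, Sun1 stretch) and 8.82% in WT (N18, Acacb stretch).

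Genes inside the stretches, those with at least 50% of their length covered, numbered 72 lost and 939 gained, which is 0.324% and 4.23% of the 22208 protein-coding genes, counts that the domain calls themselves fix. Gene density was 3.87 per Mb in lost stretches, 12.9 per Mb in gained stretches and 8.69 per Mb in the genome. No gene was inside 33 of 62 lost and 52 of 185 gained stretches. Of the genes, 51 of 72 lost (70.8%) and 37 of 939 gained (3.94%) were at least 50% inside lamin B1 domains at 30 cycles, beside 16.8% of all genes. Inside LAP2alpha domains at 12 cycles were 6 lost (8.33%) and 769 gained genes (81.9%), beside 35.9% of all genes.

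Of 26 gene lists, 2 had at least 3 members inside lost stretches. Olfactory receptor genes, which form clusters of similar copies where reads may be hard to place, gave 12 of 1113 (1.08%), all in 1 stretch of 440 kb on chromosome 2 (chr2:36740001-37180000) with Olfr360, Olfr357, Olfr354 and Olfr358, so they count as 1 region. Lamin B1 covered 95% of it at 12 cycles and 100% at 30 cycles, LAP2alpha 0% and 100%, and at 12 cycles 3A6 covered 70% in KO and 0% in WT. Genes over 500 kb gave 5 of 200 (2.5%), with Nrxn3, Grm7, Dlgap1 and Cntnap5c, and of 47 neural adhesion genes 2 were lost, Nrxn3 and Cntnap5c. Of 35 bitter taste receptor genes, a list added after the values were seen, 6 were lost and 0 gained, all in chr6:131472001-131879000 (407 kb), which lamin B1 held whole at both sonications and no LAP2alpha or 12-cycle lamin A/C library held. These shares stand beside 0.324% for all genes.

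More lists reached 3 members in gained stretches, which hold more genes. Collagen genes gave 4 of 43 (9.3%), with Col5a1, Col13a1, Col4a2 and Col4a1, and beta-defensin genes, which encode antimicrobial peptides, 4 of 41 (9.76%), with Defb39, Defb37, Defb40 and Defb38 in 1 stretch, chr8:18601001-19063000. At 12 cycles that stretch lay to 100% in KO domains and to 0% in WT domains of both antibodies. Cytochrome P450 genes gave 5 of 98 (5.1%), with Cyp24a1, Cyp2a5, Cyp2a22 and Cyp2a12. Ribosomal protein genes gave 3 of 79 (3.8%), Rpl21, Rpl38 and Rps21. Zinc finger genes gave 12 of 367 (3.27%), with Zfp217, Zfp326, Zfp787 and Zfp667, and potassium channel genes 3 of 94 (3.19%), Kcnc1, Kcng4 and Kcnmb1. Genes over 500 kb gave 6 of 200 (3%), with Auts2, Dlgap2, Rora and Sorcs3. Vomeronasal receptor genes gave 8 of 324 (2.47%), with Vmn1r65, Vmn1r63, Vmn1r62 and Vmn1r64, and olfactory receptor genes 6 of 1113 (0.539%), with Olfr522, Olfr524, Olfr523 and Olfr517. Read against 4.23% of all genes, collagens, beta-defensins and P450 genes were above it and the other lists named here below it, on small counts and with members that lie next to each other.

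Members of other lists were few or none. Of 14 genes of lamins and the nuclear envelope 0 were lost and 1, Sun1, was gained, and of 11 genes of the E2F and retinoblastoma family, partners of the LAP2alpha and lamin A complex, 0 were lost and 1, Rbl2, was gained. Of 16 fibroblast genes, 39 Hox genes, 51 keratins, 67 replication-dependent histone genes, 35 chemokines, 60 serpins and 29 Wnt ligands and receptors, 0 were lost and 0 gained. Over all genes the shares were 0.324% lost and 4.23% gained, at which lists of these sizes hold few or no members. The counts are therefore no result about these lists.

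The lost and the gained stretches were concentrated on different chromosomes. Chromosomes 15, 6, 17, 14 and 1 held 69.2% of the lost length, with 3.40 Mb on chromosome 15, and chromosomes 5, 8, 7, 2 and 9 held 65.9% of the gained length, with 14.6 Mb on chromosome 5 and 13.7 Mb on chromosome 8. Lost exceeded gained length on 7 of 20 chromosomes. Chromosomes 6 and 16 had lost stretches alone, chromosome 13 gained ones alone, and the X chromosome neither. Lost stretches lay more in lamin B1 domains at 30 cycles than gained ones on 13 of the 16 chromosomes with both, and less in LAP2alpha domains at 12 cycles on 16 of 16. The other 3 were chromosome 1, with 100% for its lost and its 3 gained stretches, chromosome 4, with 0% for both, and chromosome 10, with 0% for 1 lost stretch of 22 kb and 6.74% for the gained ones. Lost stretches of chromosome 14 lay to 26.2% in lamin B1 domains, and gained stretches of chromosome 19 to 60.7%. Lost stretches of chromosome 1 were also the ones most within LAP2alpha domains at 12 cycles, at 92.8%.

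**Figure D4:**
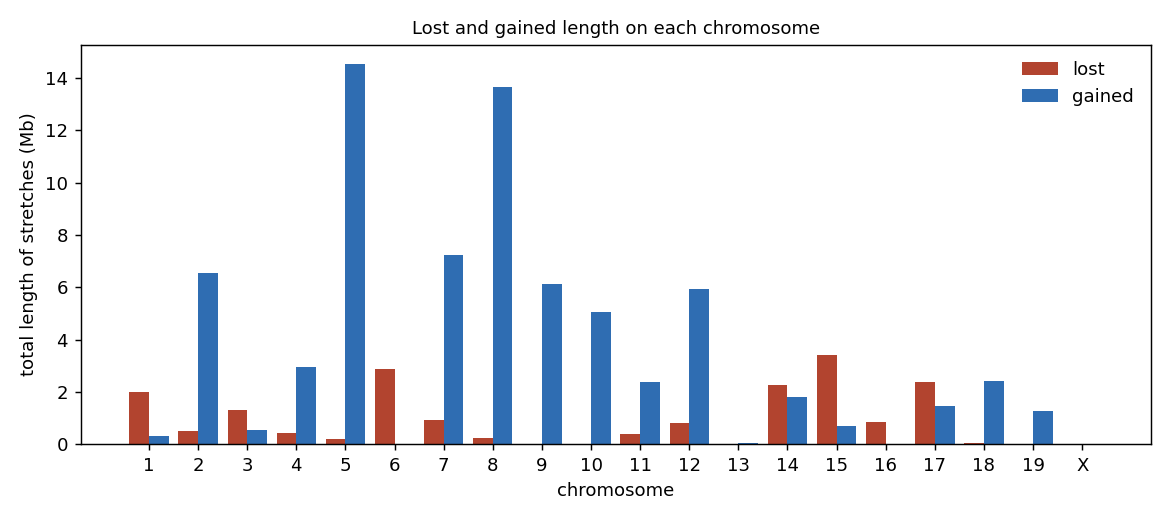
Total length of lost (left bar) and gained (right bar) stretches on each chromosome, in Mb. Lost length is highest on chromosome 15 (3.40 Mb) and gained length on chromosomes 5 (14.6 Mb) and 8 (13.7 Mb), and the X chromosome has neither.

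Without chromosomes 5, 6, 8 and 15, which hold the most of either set, 43 lost (11.9 Mb) and 135 gained stretches (44.1 Mb) remained. Lamin B1 domains at 30 cycles then covered 74.4% of lost and 12.5% of gained bp, and G+C was 40.9% and 45.7%. Island cover of whole chromosomes also differed between genotypes. On chromosome 18, which held 8 gained stretches (2.43 Mb), N18 islands at 30 cycles covered 33.1% in KO and 1.26% in WT and 3A6 islands 31.7% in KO and 0.346% in WT. On chromosome 13 and the X chromosome island cover was lower in KO, at 0.0464% in KO and 16.2% in WT for chromosome 13 with N18, and 0.495% in KO and 12.0% in WT for X, although neither carried lost stretches. Chromosomes that hold more of the stretches differed as well with 3A6 at 30 cycles. Its islands covered 48.4% of chromosome 8 in KO and 28.6% in WT, and 16.4% of chromosome 15 in KO and 30.3% in WT. On chromosomes 6, 17 and 14 they covered 7.84%, 4.95% and 2.57% in KO, and 22.6%, 21.4% and 11.6% in WT. N18 islands differed less on these, and on chromosome 15 were higher in KO (34.0%) than in WT (29.8%). The part of such steps in the stretches was not tested. A difference between the KO and WT lines in the copy number of a chromosome and a difference in lamin A/C binding cannot be told apart in region lists.

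The edges of the stretches often touched a domain of the other genotype. Of 62 lost stretches 41 did so at 1 end, 1 at both ends and 20 at neither, and these 20 made up 10.8 Mb. Of 185 gained stretches 111 did so at 1 end, 24 at both ends and 50 at neither, and these 50 made up 28.2 Mb. Widening the domains of the other genotype by 55 kb on each side left 42 lost stretches (16.7 Mb) and 149 gained stretches (65.2 Mb), so most of the length was farther than that from such an edge.

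At 12 cycles the same stretches did not show the same genotype difference, except for gained stretches with N18. Lost bp were covered more in KO than in WT at 12 cycles with both antibodies, 24.5% in KO and 9.99% in WT with N18 (14.5 percentage points), and 35.5% in KO and 25.2% in WT with 3A6 (10.3 percentage points). Gained bp were covered by 72.0% in KO and 61.6% in WT with N18, and by 41.4% in KO and 64.7% in WT with 3A6, so the antibodies differed in direction. Over the genome KO minus WT was 0.689 percentage points with N18 and -0.556 with 3A6 at 12 cycles. Lamin A/C libraries of 12 cycles and of 30 cycles were run on separate flow cells, so these 2 factors cannot be told apart, whereas KO and WT at a given number of cycles were run in 1 lane.

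Most gained bp lay in lamin A/C domains at 12 cycles, and most lost bp did not. Of lost bp 20.98% lay in domains of KO alone at 12 cycles (at least 1 antibody), 9.75% of WT alone, 15.4% of both and 53.8% of neither. Of gained bp 19.7% lay in domains of KO alone, 13.7% of WT alone, 56.1% of both and 10.5% of neither. In the genome the shares were 10.0% for KO alone, 7.23% for WT alone, 12.0% for both and 70.7% for neither. By stretches, judged by the state of most bp, 18 lost were in KO alone, 7 in WT alone, 12 in both and 25 in neither, and 31 gained were in KO alone, 30 in WT alone, 99 in both and 25 in neither.

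When the same rule with both antibodies was applied at 12 cycles, it gave other regions. Of the bp lost at 30 cycles 0.022 Mb was lost at 12 cycles too and 2.27 Mb (12.2%) was gained at 12 cycles. Of the bp gained at 30 cycles 8.22 Mb (11.3%) was gained at 12 cycles too, which is 11.4% of the 71.8 Mb gained there, and 6.06 Mb (8.31%) was lost there, which is 7.43% of the 81.6 Mb lost at 12 cycles.

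Island cover followed the domain direction at 30 cycles, in the same libraries. At 12 cycles it did so only for N18 in gained stretches, by a small difference. In lost stretches at 30 cycles N18 islands covered 16.8% in KO and 36.1% in WT, and 3A6 islands 11.1% in KO and 38.6% in WT. In gained stretches at 30 cycles N18 islands covered 26.5% in KO and 15.6% in WT, and 3A6 islands 17.3% in KO and 2.01% in WT. Beside these stand the chromosomes that carry the stretches, weighted by the stretches on them. For the lost set they had 15.9% in KO and 15.6% in WT with N18, and 6.79% in KO and 14.6% in WT with 3A6. For the gained set they had 13.8% in KO and 9.75% in WT with N18, and 11.7% in KO and 7.06% in WT with 3A6. The part of these whole-chromosome differences in the island direction was not tested. At 12 cycles KO minus WT was 1.60 percentage points with N18 and 0.505 with 3A6 in lost stretches, and 0.811 with N18 and -5.03 with 3A6 in gained stretches, where 3A6 islands covered 14.2% in KO and 19.2% in WT. By stretch at 12 cycles, island cover with 3A6 was higher in KO for 36 and lower for 76 of 185 gained stretches, and with N18 higher for 60 and lower for 48. Of 62 lost stretches it was higher in KO for 21 and lower for 16 with 3A6, and higher for 18 and lower for 15 with N18. By stretch at 30 cycles, island cover of N18 was lower in KO for 28 of 62 lost stretches, higher for 7 and equal for 27, and for 3A6 it was lower for 28, higher for 6 and equal for 28. Among 185 gained stretches it was higher in KO for 86 and lower for 28 with N18, and higher for 61 and lower for 7 with 3A6. Islands of these libraries were almost absent on chromosomes 1 and 7, at most 0.113% and 0.0719% of the chromosome. Chromosome 1 holds 7 lost and 3 gained stretches and chromosome 7 holds 3 lost and 23 gained, so island calls compare little there.

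**Figure D5:**
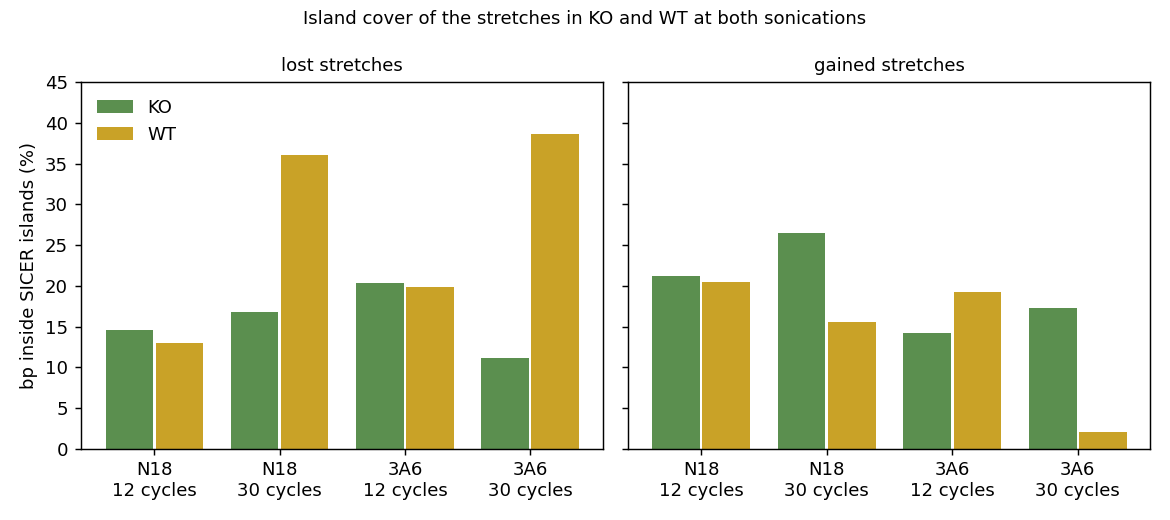
Percent of bp of the lost (left panel) and gained (right panel) stretches inside SICER islands, for KO (left bar) and WT (right bar) with each antibody at 12 and 30 cycles. At 30 cycles lost stretches are lower in KO (16.8% and 11.1%) than in WT (36.1% and 38.6%), and at 12 cycles the largest gap is that of 3A6 in gained stretches (14.2% in KO and 19.2% in WT).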

How the data were processed

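ChIP-seq region lists of 12 libraries in immortalized mouse dermal fibroblasts were analysed, and 4 input and 8 histone mark samples were not analysed here. Per the labels and the study's methods, adapters were removed (cutadapt), mm9 was the alignment target of Bowtie2 2.1.0, and Picard took out duplicate reads and brought each ChIP library down to the read number of its input, against which the authors called regions. The deposited EDD domain lists carry a score per domain, and the deposited SICER 1.1 island lists carry counts of reads per island. Reads inside islands numbered 3989494 to 13601739 per library, which limits what could be called, and total depth is not in the lists, so no interval for counting error is given.

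All regions were set on 1-kb bins. EDD domains lie on a grid of 11 kb, with 0 off it. Lost and gained stretches, their cover by other libraries, G+C from NCBIM37, and genes of GENCODE M1 (22208 symbols, at least 50% of length covered) were computed with Python 3.11.15 and numpy 2.4.6, and figures drawn with matplotlib 3.10.9. Genome shares are over 2556 Mb of bins with called bases. The interval arithmetic was checked on simulated domains, where total length and number of stretches equalled a separate count in 20 of 20 trials. That check covers the code alone and not the detection of changes. Members, lists and comparisons were chosen with earlier results of these data known. The text names the 6 longest stretches of each set, up to 4 genes of a list in each or else the 2 longest genes, and up to 4 members, longest first, of each list with at least 3 members inside. Alternatives were longer stretches, higher scores, islands, autosomes, widened domains, sets of the same length, each antibody alone, the other sonication as reference, and genes by start. A share was taken as moved when it left the 95% exact binomial interval (Clopper-Pearson, scipy 1.17.1) for the number of stretches, and a count when it changed by over 1.5 times. The interval treats a share of bp as a count of independent stretches, which it is not. It serves only as a set limit for sorting the alternatives and measures no spread between libraries.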

Additional observations from a re-analysis of the deposited data

Results flagged for a closer look

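Summed over the lost stretches, domain cover differed between genotypes in opposite directions at the 2 sonications with both antibodies. At 12 cycles EDD cover was higher in KO than in WT by 14.48 percentage points with N18 and by 10.28 percentage points with 3A6, while at 30 cycles the choice of the stretches fixes it as lower in KO. The difference between the sonications was not tested, since each group had 1 library, and the 12- and 30-cycle libraries differ in flow cell as well. By stretch at 12 cycles, EDD cover was higher in KO for 18, lower for 3 and equal for 41 of 62 with N18, and higher for 20, lower for 10 and equal for 32 with 3A6. Island cover differed by 1.60 percentage points with N18 and 0.505 with 3A6.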

How the results depend on the processing

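No paired analysis was possible because each group had 1 library and no test was made. Of 90 values under alternatives, 40 stayed within the limits set, 49 moved and 1 reversed. Left out of these are 18 values of G+C, whose limits were too wide for any to leave, and 10 for the autosomes, which equal the main ones since X has no stretch. Lost minus gained kept its direction in 10 of 10 alternatives for lamin B1 (33.2 to 91.4 percentage points), in 11 of 11 for LAP2alpha (-59.8 to -4.53) and in 9 of 9 for G+C (-6.59 to -3.64). Each of these tallies counts the autosomes, whose outcome was fixed. Longer stretches, widened domains and the settings that leave out chromosomes keep part of the same bp, so the alternatives are not independent. All of them also keep the rule that places lost bp inside and gained bp outside WT lamin A/C regions. The values that moved follow, with lost before gained, where shares are of bp in the 30-cycle lamin B1 and LAP2alpha domains and the 12-cycle value is same minus opposite direction in percentage points (main -11.2 and 5.94).

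With 3A6 alone there were 343 and 327 stretches and 1275 and 1985 genes, lamin B1 shares of 93.6% and 41.8%, LAP2alpha shares of 16.6% and 50.04%, and 12-cycle values of -10.5 and 8.36. With N18 alone there were 168 and 434 stretches and 389 and 5410 genes, and the gained 12-cycle value reversed to -14.4. With SICER islands there were 2779 and 1596 stretches and 159 and 322 genes, lamin B1 shares of 59.4% and 25.4%, LAP2alpha shares of 7.51% and 12.0%, and 12-cycle values of -4.32 and 37.6. With sets of the same length there were 18 and 46 stretches and 21 and 431 genes, lamin B1 shares of 94.1% and 2.70%, and 12-cycle values of -40.2 and 11.2. With domains above the median score there were 18 and 103 stretches, 32 lost genes, and 12-cycle values of -28.7 and 11.2. At least 100 kb left 35 lost stretches. Both antibodies at 12 cycles gave 12-cycle values of -12.1 and 2.96. The 12-cycle references gave lamin B1 37.9% of lost, and LAP2alpha 12.9% and 72.7%.

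Chosen after the data were seen, leaving out chromosomes 5, 6, 8 and 15 gave 504 gained genes, a gained lamin B1 share of 12.5%, LAP2alpha shares of 55.5% and 75.4%, and a lost 12-cycle value of -24.5, and chromosomes with LAP2alpha domains at 30 cycles gave 74.3% of gained. The causes were not tested. Single libraries, 2 inputs per sonication shared by both antibodies, and region lists without signal limit every value here.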
